A study of Mus musculus with 6 samples.

Results

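Platelets are shed by megakaryocytes, large bone marrow cells that fill their cytoplasm with granules before releasing it as proplatelets. Platelets bind von Willebrand factor through the glycoprotein Ib-IX-V complex and fibrinogen through the integrin alpha-IIb beta-3, and on activation release chemokines and adhesive proteins from their alpha granules. Part of this gene set is nearly confined to the lineage, while another part also serves monocytes, neutrophils or B cells, and some megakaryocyte genes are active in hematopoietic stem cells (HSCs) as well. The 10 genes described here, of 30733 distinct gene symbols in the files, were taken by name. They are 6 platelet-restricted genes (Pf4, Ppbp, Gp9, Gp1bb, Treml1 and Itgb3) and 4 genes shared with myeloid cells (Thbs1, Nbeal2, Plek and Mef2c), and the assignment of each gene to a group rests on general knowledge and was made with earlier results of these data known. "Restricted" is relative, since Itgb3 is also known from osteoclasts and macrophages and Pf4 from some macrophages.

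The libraries came from MHCII-hi and MHCII-lo bone marrow cells of WT mice aged 5 months, labelled as hematopoietic stem cells and sorted by the level of MHC class II, the molecules that present peptides to helper T cells. Both groups are of the same genotype and untreated, and each is represented by 3 libraries (n = 3 in every group value). The sources used here do not give the markers or boundaries of the sort. Whether each library is a separate animal is not stated in the labels, and the p-values rest on a spread between libraries that may be technical. The values are FPKM, fragments scaled to transcript length and library size, a unit inferred from the files, and the number of reads behind them is unknown.

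The labelled cell type was set against its markers first. Of 10 stem cell markers, 6 lay below a mean of 1 FPKM, among them Procr, Slamf1 and Mecom, and Hoxb5 was listed at 0 in 5 libraries and at 0.01 FPKM in 1. Procr, Slamf1, Mecom and Fgd5 averaged 0.763, 0.387, 0.190 and 0.127 FPKM in MHCII-hi, against 0.233, 0.210, 0.0500 and 0.0567 FPKM in MHCII-lo. Ctnnal1 averaged 0.363 FPKM in MHCII-hi and 0.387 FPKM in MHCII-lo. Kit was at 10.9 ± 0.208 FPKM in MHCII-hi and 10.9 ± 0.0306 FPKM in MHCII-lo, and Ly6a at 14.6 ± 0.517 FPKM in MHCII-hi and 4.78 ± 0.214 FPKM in MHCII-lo. Hlf was at 2.11 ± 0.313 FPKM in MHCII-hi and 0.843 ± 0.0569 FPKM in MHCII-lo, and Mllt3 at 1.95 ± 0.0436 FPKM in MHCII-hi and 1.84 ± 0.0404 FPKM in MHCII-lo. Transcripts of other lineages were abundant in both groups, with the neutrophil gene S100a9 at 7631 ± 48.7 FPKM in MHCII-hi and 5900 ± 12.4 FPKM in MHCII-lo. In bulk libraries fewer cells of a type and less RNA per cell cannot be told apart, which applies to every value below.

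All 4 shared genes were higher in MHCII-hi, by 1.34 to 2.21 times in mean FPKM, and the groups did not overlap for any of them. Among all tested genes, 29.6% had every MHCII-hi library above every MHCII-lo library. None of the 4 tested platelet-restricted genes among the 10 passed the test in either direction. Gp1ba and Gp5, outside the 10 and of the same complex as Gp9, were called higher, and some settings removed these calls. Of the 10 genes, 8 reached the mean of 1 FPKM over the 6 libraries that was required for testing, while Gp1bb and Treml1 did not. Among the 8 tested, 4 rose, none fell and 4 did not pass (limma on log2(FPKM + 1), Benjamini-Hochberg adjusted p under 0.05 over 12295 genes). Over all tested genes, 27.2% were called higher and 40.5% lower, that is 3348 and 4982 genes, and with median-of-ratios scaling 4090 and 4001 genes. The median change of the 8 was 0.27 on the log2 scale, against -0.08 over all tested genes. The 4 tested platelet-restricted genes had a median change of 0.13 and the 4 shared genes 0.69. At an unadjusted p under 0.05, limma called 0 of the 4 tested restricted genes in either direction and 0 of the 8 tested genes lower.

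**Figure D1:**
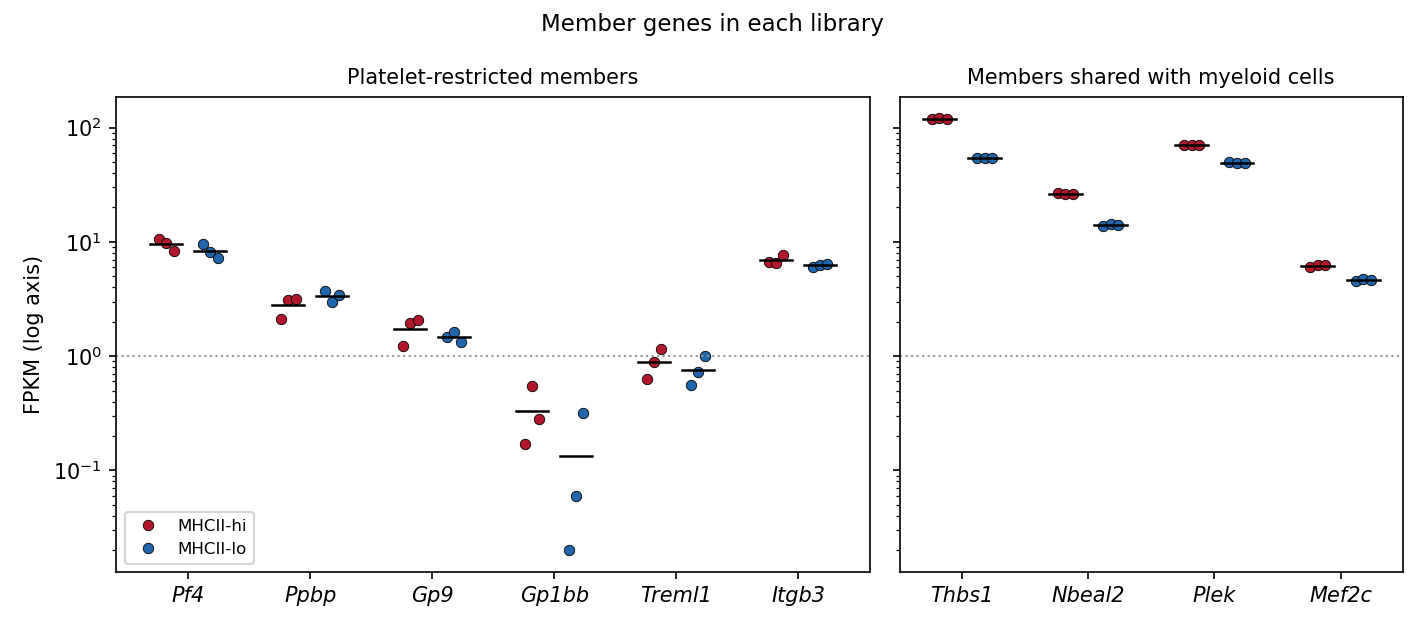
FPKM of the 10 genes in each of the 6 libraries on a log axis, MHCII-hi in red and MHCII-lo in blue, with bars at the group means and a dotted line at 1 FPKM. The shared genes separate by group, with Thbs1 at 118.45 to 120.88 FPKM in MHCII-hi and 53.73 to 54.53 FPKM in MHCII-lo, while the points of Pf4, Ppbp, Gp9, Gp1bb and Treml1 overlap.

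Stretches of promoter are shown for 2 platelet-restricted and 2 shared genes, to set the sequence ahead of a RefSeq start of these genes beside their different outcome in the test. GATA1 and FLI1, a GATA and an ETS factor, are known to bind many megakaryocyte promoters. Each sequence holds the 250 bases before the start annotated by RefSeq (GRCm38.p6), 5′ to 3′ on the gene's strand. The RefSeq start of Plek lies inside the longer GENCODE span given for that gene below, so its window is not the sequence ahead of that span. Capitals mark GATAA and the ETS letters AGGAAG or CGGAAG on either strand. The windows are chr5:90772185-90772434 (plus strand) for Pf4, chr6:87777820-87778069 (plus) for Gp9, chr9:110654162-110654411 (minus) for Nbeal2 and chr11:17008719-17008968 (minus) for Plek.
Pf4: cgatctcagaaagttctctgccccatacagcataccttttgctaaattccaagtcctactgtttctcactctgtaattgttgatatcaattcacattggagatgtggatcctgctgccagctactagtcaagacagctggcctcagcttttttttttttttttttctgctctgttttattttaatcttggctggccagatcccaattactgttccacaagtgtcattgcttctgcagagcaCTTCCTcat
Gp9: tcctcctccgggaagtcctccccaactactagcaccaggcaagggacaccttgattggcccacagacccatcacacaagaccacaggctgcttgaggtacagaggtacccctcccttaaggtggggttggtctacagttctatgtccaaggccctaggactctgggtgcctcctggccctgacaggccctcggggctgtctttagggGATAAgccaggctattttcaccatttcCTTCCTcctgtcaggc
Nbeal2: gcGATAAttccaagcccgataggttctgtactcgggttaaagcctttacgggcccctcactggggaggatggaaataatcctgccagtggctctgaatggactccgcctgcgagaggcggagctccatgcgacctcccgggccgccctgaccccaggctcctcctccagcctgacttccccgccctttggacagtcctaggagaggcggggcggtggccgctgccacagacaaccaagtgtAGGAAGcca
Plek: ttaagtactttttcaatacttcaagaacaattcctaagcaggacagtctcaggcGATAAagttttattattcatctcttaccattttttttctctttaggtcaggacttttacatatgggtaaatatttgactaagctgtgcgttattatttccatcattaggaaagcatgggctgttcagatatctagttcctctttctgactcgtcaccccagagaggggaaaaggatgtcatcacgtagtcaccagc

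Of the 10 genes, 8 had RefSeq windows, with 3 windows for Mef2c and 1 for each of the others. GATAA stood in a window of 4 of these 8 genes, the shared Nbeal2, Plek and Mef2c and the restricted Gp9, and in none of Pf4, Ppbp, Gp1bb and Treml1, against 22.6% of 32851 promoter windows of the same length. AGGAAG also stood in a window of 4 of the 8, Pf4, Gp9, Nbeal2 and Mef2c, against 29.5% of all windows, and in the first 3 it lay within 16 bases of the start. CGGAAG, present in 13.6% of all windows, stood in a window of Gp1bb and Mef2c. The 2 GATAA matches and the AGGAAG match of Mef2c lay in 1 of its 3 windows, chr13:83523406-83523655. The sequence at the start of that window's transcript was not found at the start of a GENCODE transcript of Mef2c. Counts per gene and shares per window are unlike measures, since Mef2c had 3 windows. These letters are short and were chosen after other forms (AGATAA for GATA factors and either CAGGAA or else CCGGAA for ETS factors) had matched in none of the 4 windows shown, and of those forms only CAGGAA stood in a window of the 8, in Ppbp and Treml1. A match is a description of the sequence and not a binding site.

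The alpha-granule chemokines Pf4 (platelet factor 4, CXCL4) and Ppbp (the precursor of CXCL7) are neighbours on chromosome 5, separated by 2372 bases in the GENCODE M21 annotation of GRCm38. Pf4 (90772435 to 90773383, plus strand) had 10.63, 9.71 and 8.35 FPKM in MHCII-hi, against 9.62, 8.08 and 7.22 FPKM in MHCII-lo. The groups overlapped, since the highest MHCII-lo library exceeded the lowest MHCII-hi library. The change was 0.19 ± 0.11 (SE) on the log2 scale, with a 95% interval of -0.09 to 0.46 (limma, adjusted p = 0.189). Pf4 has a short transcript of 588 bases, and its change was -0.0029 (limma, adjusted p = 0.982) after removal of each library's trend on length and GC content, but 0.45 (limma, adjusted p = 0.00876) when that trend was fitted without the immunoglobulin segments. Ppbp (90768518 to 90770063, plus strand) had 2.1, 3.07 and 3.16 FPKM in MHCII-hi, against 3.69, 2.96 and 3.4 FPKM in MHCII-lo. Its groups also overlapped, with the lowest library in MHCII-hi, and its change of -0.21 ± 0.13 (SE) had an interval of -0.52 to 0.09 (limma, adjusted p = 0.178). With the trend fitted without the immunoglobulin segments, the change of Ppbp was 0.09 (limma, adjusted p = 0.554). The members of this chemokine pair thus lay on opposite sides of 0 without either passing the test.

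Gp9 and Gp1bb encode small subunits of the glycoprotein Ib-IX-V complex. Gp9 (chromosome 6, 87778072 to 87779768, plus strand) had 1.22, 1.95 and 2.05 FPKM in MHCII-hi, against 1.48, 1.63 and 1.34 FPKM in MHCII-lo. Both the lowest and the highest value were in MHCII-hi, and the change was 0.13 ± 0.13 (SE), with an interval of -0.19 to 0.45 (limma, adjusted p = 0.414). This outcome depended on the MHCII-hi library at 1.22 FPKM, replicate 1, without which the change was 0.27 (limma, adjusted p = 0.0276). Gp1bb (chromosome 16, 18620317 to 18622403, minus strand) had 0.17, 0.55 and 0.28 FPKM in MHCII-hi, against 0.02, 0.06 and 0.32 FPKM in MHCII-lo. It lay too low for testing, and with no expression minimum its change was 0.23 (limma, adjusted p = 0.297). The gene overlaps Sept5 (Septin5 in the files) on the same strand, which was at 15.95 ± 0.465 FPKM in MHCII-hi and 8.10 ± 0.169 FPKM in MHCII-lo. The sources used here do not say how reads from the overlap were divided, so the low values of Gp1bb are uncertain.

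Treml1 encodes TLT-1, a receptor stored in the alpha-granule membrane and brought to the surface on activation. It lies on chromosome 17 (48359916 to 48367176, plus strand) and had 0.63, 0.89 and 1.15 FPKM in MHCII-hi, against 0.56, 0.72 and 1.0 FPKM in MHCII-lo. The ranges overlapped over most of their length, and with no expression minimum the change was 0.10 (limma, adjusted p = 0.652). Itgb3, the beta-3 chain of the fibrinogen receptor, lies on chromosome 11 (104608000 to 104670476, plus strand) and had 6.66, 6.59 and 7.68 FPKM in MHCII-hi, against 6.07, 6.27 and 6.45 FPKM in MHCII-lo. Every MHCII-hi library was above every MHCII-lo library, by a narrow margin. The change of 0.13 ± 0.06 (SE) had an interval of -0.01 to 0.28 and did not pass (limma, adjusted p = 0.0908), and with median-of-ratios scaling it was 0.22 and passed (limma, adjusted p = 0.0181). Summed over the 6 platelet-restricted genes, FPKM ranged between 21.4 and 22.8 in MHCII-hi and between 19.7 and 21.4 in MHCII-lo.

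Thbs1, which encodes the adhesive glycoprotein thrombospondin-1 of alpha granules and is also made by monocytes, macrophages and endothelial cells, had the highest level of the 10 genes in both groups. It lies on chromosome 2 (118111876 to 118127133, plus strand). Its values were 118.96, 120.88 and 118.45 FPKM in MHCII-hi, against 54.22, 53.73 and 54.53 FPKM in MHCII-lo. The groups stood far apart relative to their spread, and the mean was 2.21 times higher in MHCII-hi. The change was 1.13 ± 0.02 (SE) on the log2 scale (limma, adjusted p = 4e-08), and 3.69% of all tested genes were called higher with a change of at least 1. Nbeal2 encodes a BEACH-domain protein required to form alpha granules and also present in neutrophils. It lies on chromosome 9 (110624789 to 110654161, minus strand) and had 26.93, 26.35 and 25.97 FPKM in MHCII-hi, against 13.89, 14.26 and 13.91 FPKM in MHCII-lo. The 1.88-fold difference, again with no overlap, corresponded to 0.87 ± 0.03 (SE; limma, adjusted p = 6.39e-07), and to 0.70 and 0.59 with the length and GC trend removed in either form.

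Plek encodes pleckstrin, a protein kinase C substrate of platelets and leukocytes (chromosome 11, 16971206 to 17052381, minus strand). It had 70.82, 70.57 and 70.28 FPKM in MHCII-hi, against 50.22, 48.61 and 49.31 FPKM in MHCII-lo. It was 1.43 times higher in MHCII-hi, a change of 0.51 ± 0.02 (SE; limma, adjusted p = 1.67e-06). Mef2c, a transcription factor of megakaryocytes that is also active in B cells and myeloid progenitors, lies on chromosome 13 (83504034 to 83667080, plus strand). It had 6.07, 6.26 and 6.24 FPKM in MHCII-hi, against 4.53, 4.72 and 4.6 FPKM in MHCII-lo. The groups did not overlap, and the change of 0.36 ± 0.04 (SE), a 1.34-fold difference, was the smallest of the shared genes (limma, adjusted p = 0.000161). Each of the 4 shared genes passed in all 17 alternative settings tried. Their summed FPKM ranged between 221 and 224 in MHCII-hi and between 121 and 123 in MHCII-lo.

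**Figure D2:**
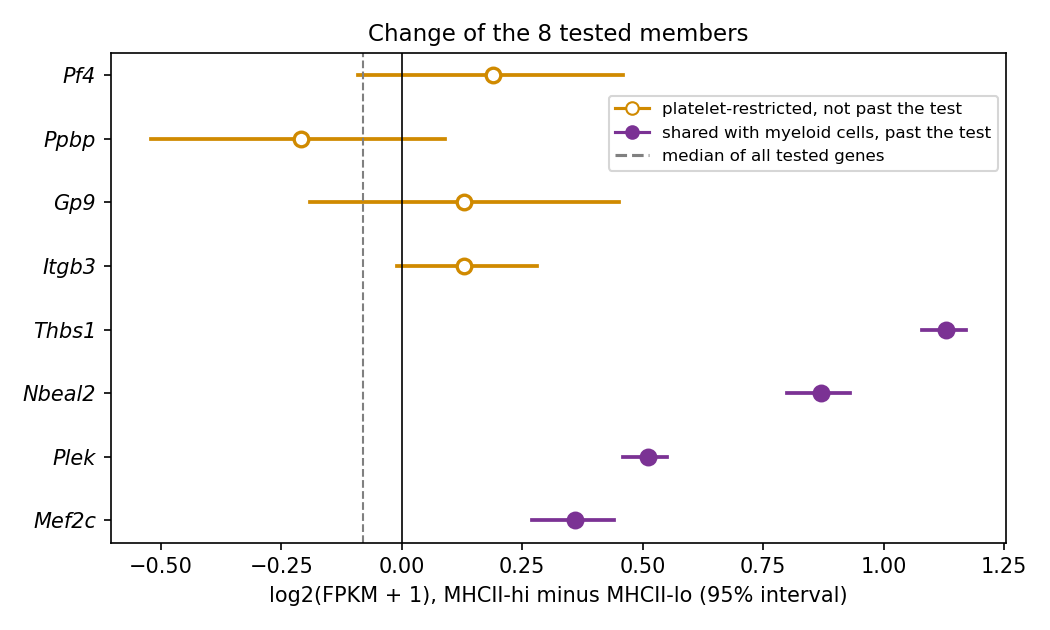
Change of the 8 tested genes on the log2(FPKM + 1) scale, MHCII-hi minus MHCII-lo, with the 95% interval from limma; filled points passed the test and the dashed line is the median of all tested genes at -0.08. The intervals of Pf4, Ppbp, Gp9 and Itgb3 include 0, and those of the shared genes run from 0.27 for the lower end of Mef2c to 1.17 for the upper end of Thbs1.

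The order of levels, in FPKM, was the same in both groups: Thbs1, Plek, Nbeal2, Pf4, Itgb3, Mef2c, Ppbp, Gp9, Treml1 and Gp1bb. No neighbours in this order had overlapping ranges within either group. The gap between Thbs1 and Plek was wide in MHCII-hi, at 119 against 70.6 FPKM on average, and narrow in MHCII-lo, at 54.2 against 49.4 FPKM. The restricted genes varied more between libraries than the shared genes, also where their level in FPKM was higher, as for Pf4 and Itgb3 against Mef2c. FPKM is scaled to transcript length, so a higher FPKM need not mean more reads. The longest transcripts of Pf4, Itgb3 and Mef2c have 588, 5784 and 6277 bases. The part of read number in this spread was not tested. The coefficient of variation between the libraries of a group was 0.383% to 2.08% for the shared genes and 3.03% to 122% for the restricted genes, with the extreme at Gp1bb. The standard error of the change was 0.11 for Pf4 and 0.04 for Mef2c, and the interval of Pf4, which reaches 0.46, includes the change of Mef2c.

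Transcript length differed between the restricted and the shared genes. The longest annotated transcript of the restricted genes had a median of 1159 bases and was 588 to 5784 bases long, against a median of 6062.5 bases and a range of 4101 to 8803 bases for the shared genes. The tested genes with transcripts of 11 to 641 bases, which include Pf4, had a median change of -0.07, close to the -0.08 over all tested genes. That median depended on the trend fit. It was -0.39 with the length and GC trend removed and 0.13 with the trend fitted without the immunoglobulin segments. Tested genes of 642 to 1282 bases, which include Gp9 and Ppbp, had a median change of -0.25, and those of 4838 to 6283 bases, which include Thbs1, Itgb3 and Mef2c, -0.01. Itgb3, with 5784 bases, did not pass and Thbs1, with 5848 bases, rose.

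**Figure D3:**
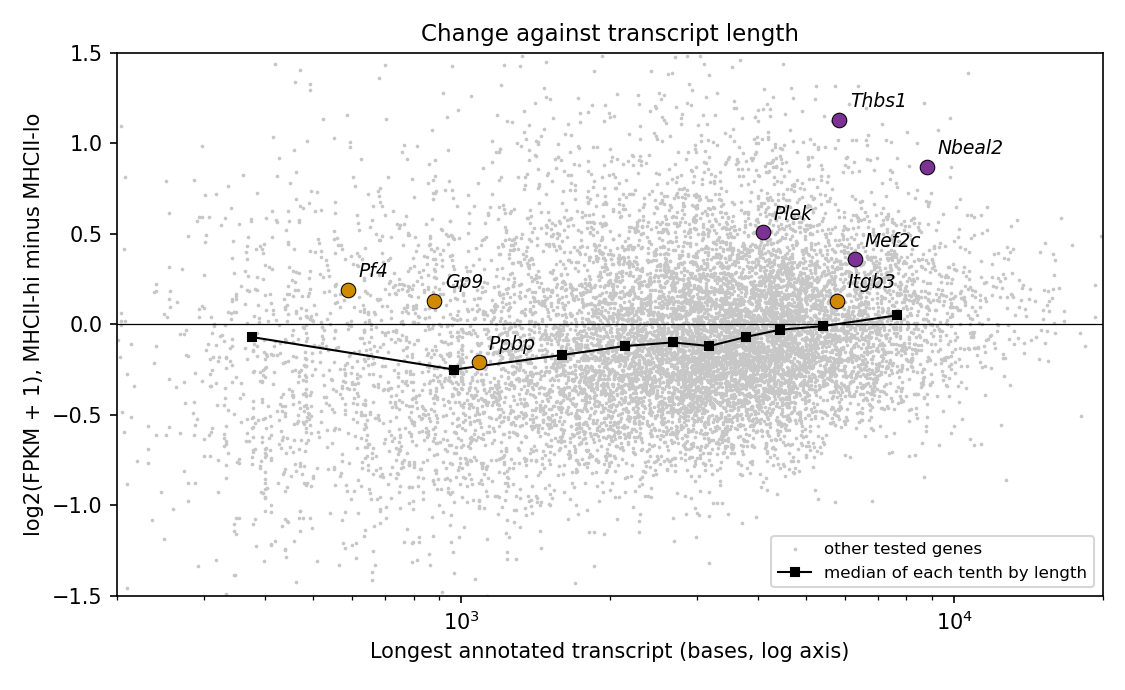
Change on the log2(FPKM + 1) scale, MHCII-hi minus MHCII-lo, against the longest annotated transcript in bases (log axis), with shared genes in purple, restricted genes in orange, other tested genes in grey (immunoglobulin segments and changes beyond 1.5 not drawn) and squares at the medians of 10 equal bins of all tested genes by length. The medians run between -0.25 and 0.05, and Thbs1, at 1.13, lies above Itgb3, at 0.13, at nearly the same length.

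By their profile over the 6 libraries, the 3 tested genes closest to Pf4 were Xlr4b, Gpr174 and Aldh6a1, with a root mean square difference of the mean-centred log2(FPKM + 1) values of 0.0148, 0.0453 and 0.0470. Those closest to Thbs1 were Ablim1 at 0.0106, Lcn2 at 0.0153 and Lilr4b at 0.0154. Lcn2 encodes a granule protein of neutrophils and averaged 423 FPKM in MHCII-hi and 197 FPKM in MHCII-lo. With 2 groups, this measure reflects little beyond the size of the group difference for Thbs1, whose groups stood far apart relative to their spread. For Pf4, with a change of 0.19 ± 0.11 (SE), it also reflects differences between the libraries of a group.

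A wider list of 65 other megakaryocyte and platelet genes was grouped by role. Of these, 50 reached the expression minimum, and of the 50 tested, 31 rose, 9 fell and 10 did not pass. Thus 62% were called higher, against 27.2% of all tested genes. Of all tested genes, 40.5% were called lower. Their median change was 0.26. Some of the list, such as Gp1ba and Selp, averaged below 1 FPKM in MHCII-lo and reached the minimum through MHCII-hi, while F2rl3 reached it through MHCII-lo. With no minimum, 37 of the 65 were called higher and 7 lower, against 3902 and 4771 of 27715 genes. Among the 15 below the minimum, Esam, Mmrn1, Timp3, P2ry12, Tbxa2r, Mylk and Rab27b were then called higher (limma, adjusted p = 0.00148 to 0.0464). The others of these 15 did not pass.

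All 6 tested adhesion receptors rose, with a median change of 0.41, including subunits that pair with members of the 10 genes. Of the 6, Gp1ba reached the minimum only through MHCII-hi. Itga2b, the alpha-IIb chain that pairs with Itgb3 and is also expressed by early progenitors and mast cells, was at 12.2 ± 0.369 FPKM in MHCII-hi and 7.58 ± 0.180 FPKM in MHCII-lo, a change of 0.61 (limma, adjusted p = 1.05e-05). Cd9, a tetraspanin of platelets and many other cells, was at 38.3 ± 0.0917 FPKM in MHCII-hi and 26.1 ± 0.488 FPKM in MHCII-lo. Gp1ba, the chain of the glycoprotein Ib complex that binds von Willebrand factor, was at 1.29 ± 0.268 FPKM in MHCII-hi and 0.723 ± 0.162 FPKM in MHCII-lo. Its change of 0.41 passed narrowly (limma, adjusted p = 0.0189) and did not pass with quantile normalization (limma, adjusted p = 0.0614) or without MHCII-hi replicate 2, MHCII-lo replicate 1 or MHCII-lo replicate 3 (limma, adjusted p = 0.0521 to 0.0622). Gp5, of the same complex, at 1.26 to 1.59 FPKM in MHCII-hi and 0.95 to 1.09 FPKM in MHCII-lo, likewise lost its call in 7 of 17 alternative settings, quantile normalization among them (limma, adjusted p = 0.0837). Gp6, Clec1b and Esam lay below the minimum, Gp6 at 0.03 to 0.08 FPKM in all libraries. With no minimum, Esam was called higher (limma, adjusted p = 0.0253), and Gp6 and Clec1b did not pass (0.136 and 0.301).

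Of 7 tested genes listed under granule contents, 3 rose and 2 fell. The list is not confined to granule cargo, since it also holds the signalling gene Gng11. The coagulation factor gene F5 was at 18.6 ± 0.258 FPKM in MHCII-hi and 8.72 ± 0.253 FPKM in MHCII-lo, a change of 1.01 (limma, adjusted p = 6.8e-07). Selp, the P-selectin gene, was at 1.54 ± 0.161 FPKM in MHCII-hi and 0.757 ± 0.0987 FPKM in MHCII-lo. Srgn, the proteoglycan core of granules in many blood cells, was at 353 ± 5.38 FPKM in MHCII-hi and 288 ± 3.06 FPKM in MHCII-lo. Pros1, the anticoagulant protein S, fell to 2.33 ± 0.290 FPKM in MHCII-hi, against 5.60 ± 0.0651 FPKM in MHCII-lo. Gng11, a G protein gamma subunit, was at 1.59 ± 0.333 FPKM in MHCII-hi and 2.44 ± 0.373 FPKM in MHCII-lo (limma, adjusted p = 0.0229), a call lost with no expression minimum (0.0654), with the length and GC trend fitted without the immunoglobulin segments (0.171), and without MHCII-hi replicate 1 or MHCII-lo replicate 1 or 2 (0.0515 to 0.0768). Vwf, which encodes von Willebrand factor, was untested at 0.65, 0.78 and 0.91 FPKM in MHCII-hi, against 0.41, 0.56 and 0.61 FPKM in MHCII-lo.

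Among 14 tested genes for activation and signalling, 8 rose, 2 fell and 4 did not pass. One of the 8, the integrin activator Tln1, differed by 0.05 on the log2 scale, did not pass with the replicate block (limma, adjusted p = 0.0748) and was called lower, at -0.13, with the length and GC trend removed. The thrombin receptor genes F2r and F2rl2 were at 7.64 ± 0.770 and 2.22 ± 0.439 FPKM in MHCII-hi, against 4.23 ± 0.255 and 1.25 ± 0.114 FPKM in MHCII-lo. Syk, a kinase also used by B cells and phagocytes, was at 48.7 ± 1.39 FPKM in MHCII-hi and 30.3 ± 0.303 FPKM in MHCII-lo. P2ry1, an ADP receptor, fell to 3.18 ± 0.430 FPKM in MHCII-hi, against 4.74 ± 0.210 FPKM in MHCII-lo. Ptgs1, cyclooxygenase-1, was at 10.1 ± 0.293 FPKM in MHCII-hi and 11.1 ± 0.546 FPKM in MHCII-lo, a call (limma, adjusted p = 0.0439) that was lost in 12 of 17 alternative settings, with an adjusted p of 0.525 under median-of-ratios scaling and 0.0605 with the replicate block.

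Of 5 tested cytoskeletal genes, 4 rose, and Flna, a filamin that cross-links actin, fell by 0.14 on the log2 scale. Actn1, an actin cross-linker, was at 28.1 ± 1.54 FPKM in MHCII-hi and 14.1 ± 0.326 FPKM in MHCII-lo. Myh9, the heavy chain of nonmuscle myosin, was at 92.6 ± 0.622 FPKM in MHCII-hi and 69.4 ± 0.358 FPKM in MHCII-lo, and Tuba8, an alpha-tubulin, at 9.83 ± 0.429 FPKM in MHCII-hi and 7.53 ± 0.437 FPKM in MHCII-lo. The platelet-specific beta-1 tubulin Tubb1 was untested, at 0.59, 0.27 and 0.3 FPKM in MHCII-hi, against 0.51, 0.7 and 0.84 FPKM in MHCII-lo. None of the 6 tested genes for granule biogenesis rose, against 27.2% of all tested genes called higher. At an unadjusted p under 0.05, limma also called 0 of the 6 higher. Rab27b of this list lay below the minimum, at 0.533 FPKM in MHCII-hi and 0.343 FPKM in MHCII-lo. With no expression minimum Rab27b was called higher (limma, adjusted p = 0.0308), and Slfn14, also below the minimum, did not pass (0.553). The vesicle fusion gene Vamp8 fell to 31.5 ± 2.39 FPKM in MHCII-hi, against 47.1 ± 1.23 FPKM in MHCII-lo, and Vipas39 was called lower, at 8.91 ± 0.316 FPKM in MHCII-hi and 9.97 ± 0.272 FPKM in MHCII-lo, a call lost with median-of-ratios scaling (limma, adjusted p = 0.198) and with the length and GC trend removed (0.191, and 0.173 in its other form).

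Of the 12 megakaryocyte regulators, mainly transcription factors, all tested, 10 rose and 2 fell, with a median change of 0.43. Gata2, a factor of HSCs, early progenitors and mast cells, was at 23.8 ± 0.780 FPKM in MHCII-hi and 9.79 ± 0.180 FPKM in MHCII-lo. Fli1 was at 29.5 ± 1.86 FPKM in MHCII-hi and 20.9 ± 0.796 FPKM in MHCII-lo, a change of 0.47 (limma, adjusted p = 0.000196). Tal1 fell to 8.30 ± 0.236 FPKM in MHCII-hi, against 10.6 ± 0.257 FPKM in MHCII-lo. Gata1, the erythroid and megakaryocytic factor, was at 10.1 ± 0.430 FPKM in MHCII-hi and 11.3 ± 0.393 FPKM in MHCII-lo (limma, adjusted p = 0.0178). That call was lost with median-of-ratios scaling (limma, adjusted p = 0.244), with the replicate block (0.0516), with the length and GC trend removed (0.154), and without MHCII-hi replicate 1 or MHCII-lo replicate 1 or 2 (0.0508 to 0.0589).

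**Figure D4:**
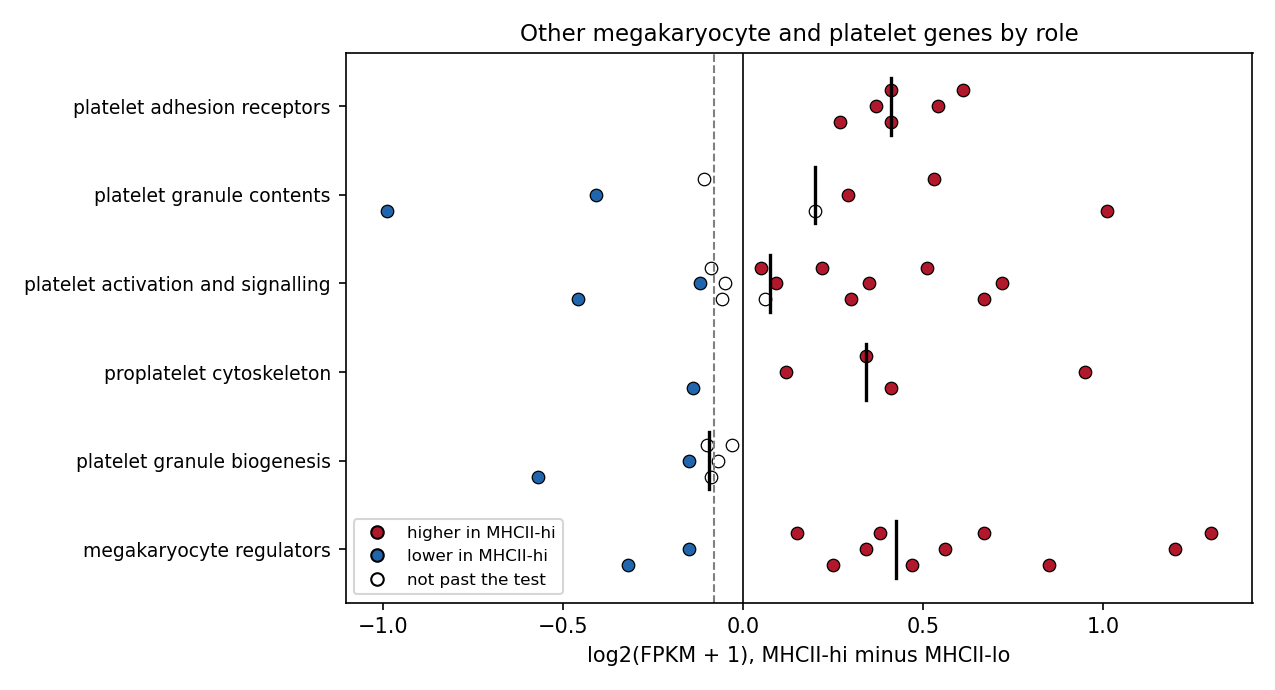
Change of the 50 tested genes of the wider list by role, on the log2(FPKM + 1) scale, MHCII-hi minus MHCII-lo, with short bars at each list's median and a dashed line at the median of all tested genes. All 6 tested adhesion receptors and 10 of 12 regulators were called higher in MHCII-hi, against 27.2% of all tested genes. Of the receptors, Gp1ba reached the minimum for testing only through MHCII-hi. None of the 6 tested genes for granule biogenesis was called higher.

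Markers of other cell types were read in the same libraries. All 10 B cell markers were higher in MHCII-hi, with a median change of 2.21 and a summed FPKM of 1053 to 1058 in MHCII-hi against 191 to 196 in MHCII-lo, among them Cd79a at 66.8 FPKM in MHCII-hi and 5.69 FPKM in MHCII-lo. Mef2c and Syk are also expressed by B cells. Of 8 neutrophil markers, 7 rose, the median change was 0.91 and the sum was 20190 to 20470 FPKM in MHCII-hi against 13520 to 13540 FPKM in MHCII-lo. S100a8 was the exception, at 3584 FPKM in MHCII-hi and 3524 FPKM in MHCII-lo, and its log2 change was 0.12 with median-of-ratios scaling and -0.63 with quantile normalization, under which S100a9 did not pass. Of 10 monocyte and macrophage markers, 3 rose and 5 fell, shares of the list near the 27.2% and 40.5% of all tested genes. Csf1r and Ly6c2 were lower in MHCII-hi at 42.3 and 341 FPKM, against 55.1 and 459 FPKM in MHCII-lo. Cd68, Mrc1 and Cd163 were higher, at 78.25, 3.03 and 2.98 FPKM in MHCII-hi and 54.3, 1.19 and 1.72 FPKM in MHCII-lo. The sum of the list, of which Ly6c2 made up the greater part, was 540 to 543 FPKM in MHCII-hi and 669 to 696 FPKM in MHCII-lo.

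Of 5 tested mast cell and basophil markers, 3 rose, including Cpa3 and Mcpt8 at 91.2 and 399 FPKM in MHCII-hi and 43.8 and 230 FPKM in MHCII-lo, and the sum over all 7 was 1027 to 1041 FPKM in MHCII-hi and 627 to 640.5 FPKM in MHCII-lo. Tpsb2 was listed at 0 in all 6 libraries. All 8 erythroid markers fell, against 40.5% of all tested genes called lower. Their median change was -0.52 and their sum 258 to 278 FPKM in MHCII-hi against 428 to 436 FPKM in MHCII-lo. Klf1 was at 13.2 FPKM in MHCII-hi and 19.5 FPKM in MHCII-lo. With the length and GC trend removed, 1 of these 8 calls was lost. The 8 endothelial markers summed to 4.92 to 5.83 FPKM in MHCII-hi and 3.29 to 3.65 FPKM in MHCII-lo, with 7 below the minimum, Cdh5 and Kdr at 1.29 and 0.183 FPKM in MHCII-hi and 0.577 and 0.0400 FPKM in MHCII-lo, and Sox17 at 0 to 0.01 FPKM. Emcn and Robo4, untested like Cdh5 and Kdr, were at 0.303 and 0.463 FPKM in MHCII-hi and 0.0600 and 0.107 FPKM in MHCII-lo. Egfl7, the tested endothelial marker, was at 2.26 FPKM in MHCII-hi and 1.93 FPKM in MHCII-lo and did not pass (limma, adjusted p = 0.281). Plvap, untested, was at 0.787 FPKM in MHCII-hi and 0.770 FPKM in MHCII-lo, and the groups overlapped for both Egfl7 and Plvap. The part of B cells, neutrophils, monocytes, mast cells and endothelial cells in the values of Thbs1, Nbeal2, Plek and Mef2c was not tested.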

How the data were processed

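Poly(A) RNA was made into stranded libraries, per the labels' protocols. The submitters' processing notes name fastp, HISAT2, StringTie, GRCm38 and mm10, without settings. The deposited files, 1 per library, list 30803 gene rows with 1 value each, written to 2 decimals. The values were taken as FPKM as the authors' StringTie run would give, because they are not whole and sum to 333347 to 333530 in MHCII-hi and 305934 to 306945 in MHCII-lo libraries. The lowest value above 0 is 0.01, the resolution of the files, so whole reads could not be recovered and no counting interval was computed. For 67 repeated symbols, the name stayed with the most abundant row. Gene positions and transcript lengths came from GENCODE M21 (96.4% of rows matched).

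The 12295 genes averaging 1 FPKM or more were compared on log2(FPKM + 1) in limma 3.58.1 under R 4.3.3 (mean-variance trend, two-sided, Benjamini-Hochberg over all tested genes, threshold 0.05). This scale understates changes of low genes, and folds are ratios of mean FPKM. Errors are SD over the 3 libraries of a group except where SE is written. The fit was run on simulated data in which few genes changed and the groups did not differ in total. That setting does not show how the fit performs here, where many genes were called. Tables used Python 3.11.15 and pandas 2.3.3.

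The members, their split and all lists were chosen with earlier results of these data known. Named genes were the 10 members, Itga2b, Gp1ba, Vwf, Gata1, Fli1 and Sept5, up to 3 called genes per direction with the largest change in each role list, the first 2 genes of each cell type list and any at 0 throughout, and the 3 profiles nearest Pf4 and Thbs1. Some genes that this rule names are not reported here. Tubb1, Gp5, Tln1, Procr, Slamf1, Mecom, Hoxb5, Sox17, Emcn, Robo4 and genes that complete a small count were named after their values were seen. Egfl7, Plvap, Rab27b and Slfn14 were also named after their values were seen. The same holds for Hlf, Mllt3, Ctnnal1, Fgd5, F2rl3, Esam, Mmrn1, Timp3, P2ry12, Tbxa2r and Mylk. Alternatives were pseudocounts of 0.1 and 0.01, no minimum or a mean of at least 5 FPKM, quantile and median-of-ratios scaling, no trend, a replicate block, removal of immunoglobulin segments, removal of length and GC trends and each library left out. The trend fitted without immunoglobulin segments was added after seeing the data. Transcript length and GC content were known for 12017 tested genes (97.7%).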

Additional observations from a re-analysis of the deposited data

How the results depend on the processing

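Thbs1, Nbeal2, Plek and Mef2c passed as higher under all 17 alternatives, with log2 changes of 1.04 to 1.22, 0.59 to 0.96, 0.50 to 0.62 and 0.35 to 0.45. No alternative called a restricted gene lower, and 4 single alternatives called 1 of them higher: the replicate block and the trend without immunoglobulin segments (Pf4), median-of-ratios scaling (Itgb3) and leaving out MHCII-hi replicate 1 (Gp9). The log2 change of Pf4 turned to -0.0029 with the length and GC trend removed, and that of Ppbp to 0.09 with the trend fitted without immunoglobulin segments, and the cause was not tested. With a mean of at least 5 FPKM, 2210 genes were called higher of 7491 tested, a smaller count because fewer genes were tested. Deviations from the group means correlated at 0.063, 0.002 and 0.08 between same-numbered libraries of the 2 groups. Between differently numbered libraries the correlations were -0.095 to 0.025. Whether replicate numbers pair the libraries cannot be told from these values. With the replicate block, 3222 genes rose and 4809 fell, and Pf4 passed at an unchanged change of 0.19 (limma, adjusted p = 0.0138). The number of reads behind each value is unknown, and of the restricted genes only Pf4 and Itgb3 exceed a mean of 5 FPKM.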
